A study of Mus musculus with 4 samples.

Results

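The stefin A genes Stfa1, Stfa2, Stfa2l1 and Stfa3 were all but silent in the WT cells and together reached 250.6 and 268.9 FPKM in the 2 Tbx21-KO libraries. FPKM counts sequenced fragments relative to gene length and library size. The 4 genes were the rows whose Ensembl identifiers map to these symbols and whose mean over the 4 libraries was at least 1 FPKM, and they are 4 of the 24768 genes of the table. They were selected on their FPKM values in these libraries, with the contrast between the groups in view, so their values and differences are given as a description, with no test. Their means over the 4 libraries were 49.6 FPKM for Stfa1, 36.7 for Stfa2l1, 36.2 for Stfa2 and 7.501 for Stfa3. Among all genes of the same locus, BC117090 lay just inside the threshold of 1 FPKM, with a mean of 1.94, and Gm5416 just outside it, with 0.326.

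The study measured RNA of mouse cDNT cells. The series title places them among double-negative T cells, which carry neither the CD4 nor the CD8 coreceptor. One group of 2 libraries is labelled with the genotype WT and the other, also of 2, with the genotype Tbx21-KO. T-bet, the product of Tbx21, drives the type 1 programme of lymphocytes. The design text calls that group a knockdown and the sample labels a knockout. How the cells were made, the animals' age and sex, and whether the libraries of a group came from separate animals or cultures were not given in the sources used here. P-values therefore reflect how far these libraries scatter, a scatter that may be technical.

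Stefins are small inhibitors of the cystatin superfamily that stay inside the cell. They block cysteine proteases of the papain family, among them cathepsins B, H, L and S, by plugging the active-site cleft. Humans have one stefin A gene, CSTA, whereas the mouse has a row of near copies on chromosome 16. Stefin A is known as an abundant protein of the epidermis and of neutrophils, and it is not a customary T cell marker.

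The copies resemble each other closely, which bears on how reads can be assigned to them. In coding sequence, Stfa2 and Stfa2l1 were identical at 301 of 312 aligned bases (96.5%). Between other pairs of the 4 members the identity ran from 77.9% (Stfa1 and Stfa2l1) to 84.7% (Stfa1 and Stfa3). Beyond the members, Stfa1 was 98.0% identical to BC100530, and Gm5483 was 96.9% identical to 2010005H15Rik. RefSeq calls BC100530, Gm5483 and 2010005H15Rik by the names Cstdc5, Cstdc4 and Csta2. The last 90 coding bases, stop codon included, are shown to let the members be told apart. They come from the GENCODE M21 transcripts (GRCm38) and lie within 1 coding exon in each gene. Stfa2 is the base of comparison, and in the others capitals mark each base that differs from it.
Stfa2: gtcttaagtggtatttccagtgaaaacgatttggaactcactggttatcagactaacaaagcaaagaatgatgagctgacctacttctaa
Stfa2l1: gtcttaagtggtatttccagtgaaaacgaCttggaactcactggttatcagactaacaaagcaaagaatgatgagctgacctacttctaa
Stfa1: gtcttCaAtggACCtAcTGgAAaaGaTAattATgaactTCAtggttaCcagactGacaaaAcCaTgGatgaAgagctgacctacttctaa
Stfa3: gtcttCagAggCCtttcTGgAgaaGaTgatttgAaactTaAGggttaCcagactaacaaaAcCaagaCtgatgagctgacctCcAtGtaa
Gm5483: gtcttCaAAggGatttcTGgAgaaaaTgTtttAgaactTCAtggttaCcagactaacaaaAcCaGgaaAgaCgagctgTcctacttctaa
These stretches lie at chr16:36404027-36404116 (-) for Stfa2, chr16:36161783-36161872 (+) for Stfa2l1 and chr16:36285206-36285295 (+) for Stfa1. Those of Stfa3 and Gm5483 lie at chr16:36450609-36450698 (-) and chr16:36187950-36188039 (+). Over these bases Stfa2l1 differed from Stfa2 at 1 position, Stfa3 at 20, Gm5483 at 20 and Stfa1 at 25.

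How far a read can single out one copy depends on its length. Of the windows of 50 bases in the annotated transcripts, 75.4% of those of Stfa2l1, 77.5% of Stfa1, 84.1% of Stfa2 and 100% of Stfa3 occurred in no other gene. At 75 bases the shares were 92.2%, 90.8%, 94.2% and 100% for the same genes. At 100 bases they were 100%, 94.9%, 100% and 100%, and at 150 bases every window of all 4 was its own. Stfa1 shared its windows of 75 and 100 bases with BC100530, and Stfa2 and Stfa2l1 shared theirs of 75 bases with each other, those of Stfa2l1 also with Gm49652. Read length and the handling of reads that fit several genes were not given in the sources used here. For that reason the sum of the 4 genes is given beside each of them.

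**Figure D1:**
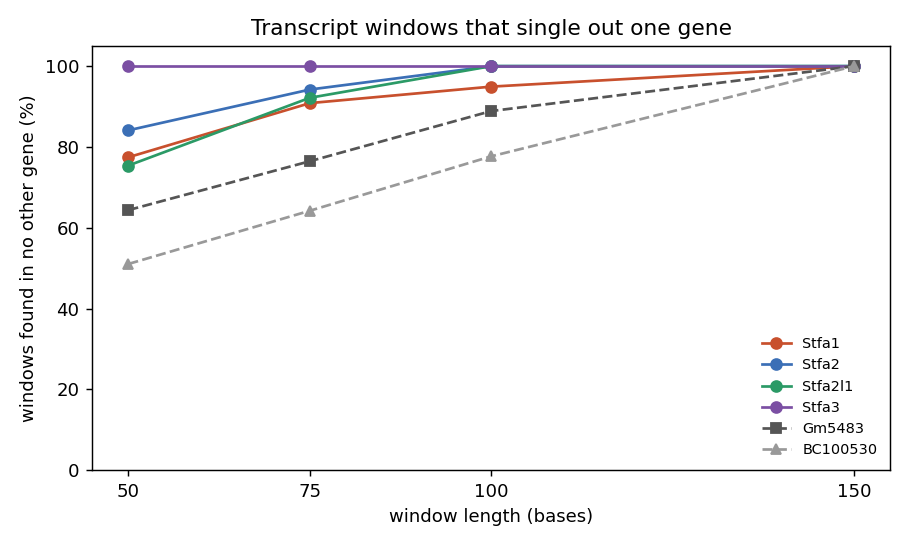
Share of transcript windows (y axis, %) that occur in no other annotated gene, by window length (x axis, bases), for the 4 stefin A members (solid lines) and 2 other genes of the locus (dashed lines). Stfa3 is at 100% throughout, and Stfa1 reaches 100% only at 150 bases.

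Just upstream of their starts the 4 genes carry one run of 13 bases in common. It was the longest run shared by all 4 within the 120 bases before the RefSeq start (GRCm38.p6), and it was picked after the sequences were compared. In the stretches of 30 bases that follow, capitals mark the run.
Stfa1: gctttcggatACCTTTAAAACCCtgagtct
Stfa2: gcttacagaaACCTTTAAAACCCtgagtct
Stfa2l1: gtttacagaaACCTTTAAAACCCtgagtct
Stfa3: cttacagataACCTTTAAAACCCcgagtct
Gm5483: gtttacagatACCTTTAAAACCCtgactct
They lie at chr16:36277105-36277134 (+) for Stfa1, chr16:36408376-36408405 (-) for Stfa2, chr16:36156765-36156794 (+) for Stfa2l1, chr16:36455407-36455436 (-) for Stfa3 and chr16:36184170-36184199 (+) for Gm5483. Counted back from the start, the run spans -33 to -21 in Stfa1, -32 to -20 in Stfa2, -36 to -24 in Stfa2l1 and -34 to -22 in Stfa3. M21 has transcripts of Stfa1 and Stfa2 that begin farther upstream and whose first exon covers these bases.

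Across the RefSeq promoter windows, which hold 250 bases before and 50 bases after each start, the run occurred in 9 of 32851 windows (0.0274%) and on the reverse strand in none. All 9 carry stefin or cystatin symbols or belong to the locus: Stfa1, Stfa2, Stfa2l1, Stfa3, Csta3, Cstdc3, Cstdc4, Cstdc5 and Gm7260. Of the 9 locus genes with a promoter entry, it was not found in Csta1 and 2010005H15Rik. Over the 250 bases before the start, Stfa2 and Stfa2l1 were 92.3% identical, and the other member pairs 82.2% to 84.6%.

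Motifs of 6 factors or boxes were searched on both strands of the same windows. GAGGAA, the core of PU.1 sites, occurred in all 4 members and in 28.3% of all windows. CCAAT also occurred in all 4, and in 37.4% of all windows. In each member it lies on the reverse strand, within a second shared run of 15 bases, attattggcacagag, which the 4 members, BC100530 and no other of the 32851 windows hold (5 windows, 0.0152%). TTNNGNAA, a loose C/EBP pattern, occurred in Stfa1, Stfa2 and Stfa2l1, against 40.7% of all windows, and in Stfa2 and Stfa2l1 it ends next to the shared run. AGATAA, the GATA pattern, was found in 2 members and 11.2% of all windows. AGGTGTGA, a T-box pattern, and TATAAA were found in none of the 9 locus windows, against 1.28% and 13.6% of all windows. A match is only a match of letters, and its absence says only that these letters are not in this window.

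Stfa1 (ENSMUSG00000071562, chr16:36276951-36285373, plus strand) had the highest level of the 4. It was listed at 0 in both WT libraries, against 94.7 and 103.7 FPKM in Tbx21-KO 1 and 2, a mean of 99.2 ± 6.38 (SD, n = 2). The groups did not overlap, and the difference on the log2(FPKM + 1) scale was 6.64 (SE 0.062). Among the 11013 genes with a mean of at least 1 FPKM, this difference ranked 11th from the top.

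Stfa2l1 (ENSMUSG00000059657, chr16:36156811-36161953, plus strand) was at 0.0967 and 0 FPKM in WT libraries 1 and 2, against 73.0 and 73.6 FPKM in Tbx21-KO, a mean of 73.3 ± 0.437 (SD, n = 2). Its near twin Stfa2 (ENSMUSG00000022902, chr16:36403992-36408457, minus strand) was at 0 and 0.0980 FPKM in WT, against 68.6 and 75.9 FPKM in Tbx21-KO, a mean of 72.3 ± 5.22 (SD, n = 2). Each thus had a single WT library with a value above 0, and both Tbx21-KO values were far above it. The log2 differences were 6.15 (SE 0.065) for Stfa2l1 and 6.13 (SE 0.080) for Stfa2, ranks 15 and 17. In the Tbx21-KO libraries the values of Stfa2l1 lay within the range of those of Stfa2, so these neighbours in the order of levels did not differ beyond their spread.

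Stfa3 (ENSMUSG00000054905, chr16:36450537-36455392, minus strand) was the lowest of the 4. It was listed at 0 in both WT libraries and was at 14.3 and 15.7 FPKM in Tbx21-KO, a mean of 15.002 ± 0.923 (SD, n = 2). The log2 difference of 4.00 (SE 0.076) ranked 59th. Of the 4 members, Stfa3 is the one whose windows of every length tried were its own, so an exact match of these lengths fits no other annotated transcript.

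Summed, the 4 genes were at 0.0967 and 0.0980 FPKM in WT 1 and 2, against 250.6 and 268.9 FPKM in Tbx21-KO 1 and 2. The log2 difference of the sum was 7.89. In Tbx21-KO the sum made up 0.0803% and 0.0823% of the summed FPKM of the library. The make-up of the sum was nearly the same in both Tbx21-KO libraries. Stfa1 gave 37.8% and 38.6% of it, Stfa2l1 29.1% and 27.4%, Stfa2 27.4% and 28.2%, and Stfa3 5.73% and 5.82%.

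**Figure D2:**
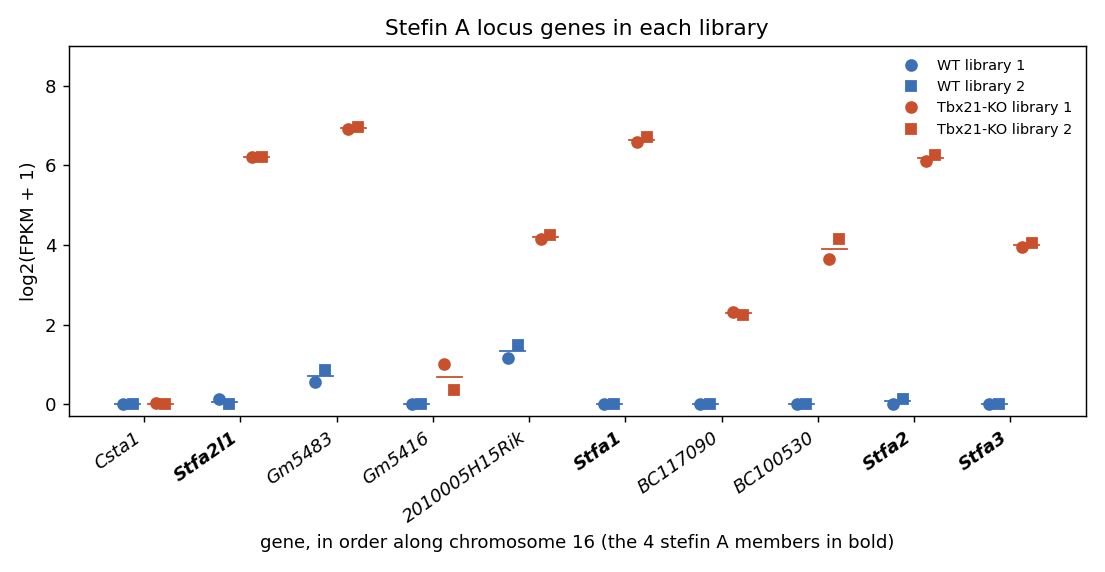
log2(FPKM + 1) (y axis) of the 10 stefin A locus genes with a row, in chromosomal order (x axis), with 1 point per library and a line at each group's mean of 2. All 4 members sit at or next to 0 in both WT libraries and between 3.9 and 6.8 in both Tbx21-KO libraries.

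Because FPKM steps with whole reads, the reads behind the values could be recovered. The totals implied for the 4 libraries were 23342603 to 24967028 reads, and 1 read in a gene of 1 kb was worth 0.0400 to 0.0428 FPKM. At gene lengths of 418 (Stfa1), 414 (Stfa2l1), 423 (Stfa2) and 412 bases (Stfa3), all 4 values of each gene were whole reads within 0.01 read. The WT libraries then held 1 read of Stfa2l1 and 1 of Stfa2, and none of Stfa1 or Stfa3. In Tbx21-KO 1 and 2 the reads were 924 and 1042 for Stfa1, 705 and 732 for Stfa2l1, 677 and 772 for Stfa2, and 138 and 155 for Stfa3. For Stfa1 a length of 627 bases gave whole reads as well, 1386 and 1563, so its reads are known only up to that choice. Lengths beyond the summed exons of M21 were not tried. Any multiple of a fitting length gives whole reads too, so the reads of all 4 genes hold only for the lengths given. The lengths for Stfa1, Stfa2 and Stfa2l1 differ from the summed exons of M21, so the lengths behind the FPKM values of these genes are not those of that release.

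With these reads, and Stfa1 at 418 bases, 2 in WT stood against 5145 in Tbx21-KO, a ratio per library total of 2666 (95% exact interval 738 to 22020). With Stfa1 at 627 bases the Tbx21-KO reads, and so this ratio, would be higher. For Stfa2 the ratio was 1502 (269 to 59352) and for Stfa2l1 1489 (267 to 58861), each against 1 WT read. No ratio is given for Stfa1 and Stfa3, which were listed at 0 in WT. Between the Tbx21-KO libraries the sum was 1.07 times higher in library 2 than in library 1 (1.02 to 1.13). These intervals cover counting error only, which leaves out differences between cells and preparations. The locus genes were chosen with the contrast between the groups in view, so no interval of Tbx21-KO over WT, here or below, is a test of it. In a bulk sample, more cells that carry a transcript and more of it per cell cannot be told apart.

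The other genes of the locus showed the same division between the groups, and they too were chosen with this contrast in view. The locus spans chr16:36119946-36455392, 335.4 kb, with 10 genes that have a row, 5 on each strand. Of these, 8 had a mean of at least 1 FPKM. All 8 were higher in Tbx21-KO by limma's adjusted p, against 30.1% of all 11013 genes tested called higher and 23.0% called lower. Only 1 of the 8, 2010005H15Rik, had a WT mean of 1 FPKM or more. The other 7 reached the filter through their Tbx21-KO values and had to differ. Nothing is read from that count.

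Gm5483 (ENSMUSG00000079597), whose coding sequence is that of a stefin-like gene, had the highest level of the locus. It was at 0.484 and 0.801 FPKM in WT, against 118.5 and 123.3 FPKM in Tbx21-KO, above each of the 4 members in those libraries. At a length of 414 bases this corresponds to 5 and 8 reads in WT and 1145 and 1227 in Tbx21-KO, a ratio of 189 (95% exact interval 110 to 356). Multiples of that length, such as 828 bases, gave whole reads as well. Its close relative 2010005H15Rik was at 1.25 and 1.82 FPKM in WT, against 16.8 and 18.1 FPKM in Tbx21-KO. That is 20 and 28 reads against 251 and 278, a ratio of 11.4 (8.49 to 15.7).

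BC100530 was listed at 0 in WT, against 11.4 and 16.6 FPKM in Tbx21-KO. Its reads in those libraries were 211 and 316, a ratio of 1.45 (1.22 to 1.74), where the ratios of the 4 members were 1.0085 to 1.1076. An antisense gene, Gm15845, overlaps it, and without stranded counting their reads cannot be told apart. BC117090 was listed at 0 in WT, against 3.99 and 3.76 FPKM in Tbx21-KO. Gm5416, at 7 and 2 reads, and Csta1, at 1 and 0 reads in Tbx21-KO, had no read in WT and fell short of the filter. The members gave 62.3% and 62.4% of the summed FPKM of the locus in Tbx21-KO 1 and 2, and Gm5483 gave 29.4% and 28.6%. The 2 ends of the locus differed, with Csta1 at the left end almost without reads and Stfa3 at the right end at 15.002 FPKM.

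**Figure D3:**
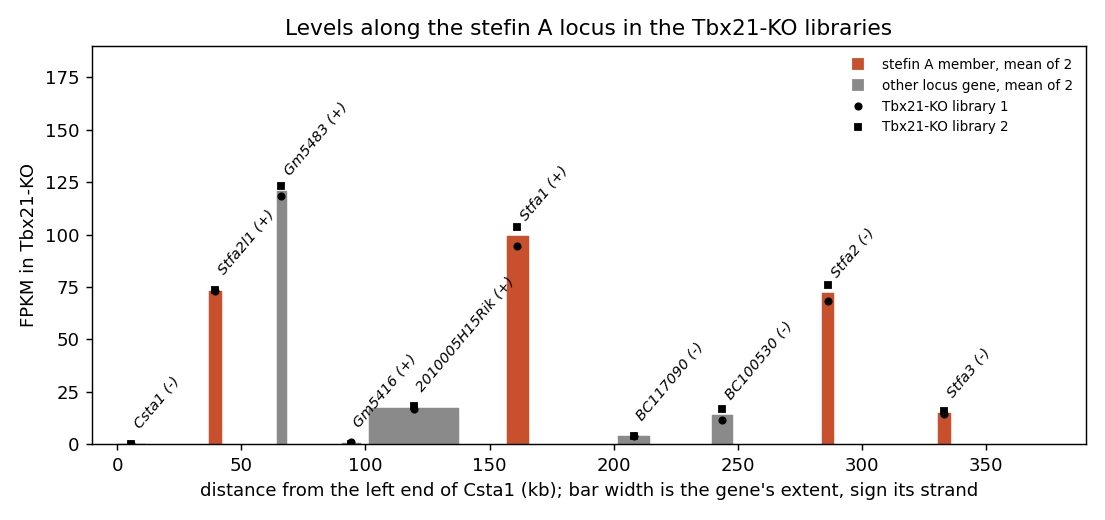
FPKM in the Tbx21-KO libraries (y axis; bars are means of 2, points single libraries) along the locus (x axis, kb from the left end of Csta1; bar width is the extent of the gene and the sign its strand). High and low genes are interspersed, with Gm5483 highest at 120.9 FPKM and Csta1 near 0.

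The genes that flank the locus differed far less between the groups, but the locus genes were chosen with this contrast in view. Nothing is read from that comparison. Within 500 kb of its ends, 14 genes outside the stefin locus list were tested, of 27 with a row, and the rule that chose the members did not use them. Of the 14, 5 were higher, 4 lower and 5 not called (limma, adjusted p under 0.05). Over all genes tested 30.1% were called higher and 23.0% lower, so nothing is read from this count. The log2 fold changes ran from -0.23 to 1.18 with a median of 0.16, against 0.04 over all genes tested. Dirc2, which had the value of 1.18, Hspbap1 and 4930565N06Rik were under 1 FPKM in WT and reached the filter through Tbx21-KO. Of the 11 neighbours at 1 FPKM or more in WT, 2 were higher and 4 lower, and the highest value was 0.69. On the left, Ccdc58 at 27.8 kb was at 20.8 ± 0.863 FPKM (SD, n = 2) in WT, against 22.8 ± 0.871 in Tbx21-KO (SD, n = 2), for a difference of 0.13 on the log2 scale (limma adjusted p = 0.103). Fam162a at 48.4 kb and Wdr5b at 76.0 kb were not called either, at 0.18 (limma adjusted p = 0.0673) and 0.23 (limma adjusted p = 0.113). Fam162a was called higher in 5 alternatives: without WT replicate 2 (limma adjusted p = 0.0281), with a replicate block (0.0184), with voom (0.012), after quantile normalization (0.0462) and rescaled to the T cell list (0.000458).

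To the right of Stfa3, the nearest gene with a row is Casr, the calcium-sensing receptor gene, which stayed under 0.06 FPKM in all 4 libraries. The nearest tested gene there was Cd86, a costimulatory ligand of antigen-presenting cells, at 148.5 kb, with 2.93 ± 0.142 FPKM (SD, n = 2) in WT, against 3.32 ± 0.0032 (SD, n = 2) in Tbx21-KO, and a log2 difference of 0.14 (limma adjusted p = 0.159). Farther out, Iqcb1 at 373 kb and Golgb1 at 419.7 kb were higher, by 0.33 (limma adjusted p = 0.0331) and 0.69 (limma adjusted p = 0.000685). The call of Iqcb1 was lost in 5 alternatives. It was lost with no filter on the mean (limma adjusted p = 0.0972) and after quantile normalization, where its value was 0.04 (limma adjusted p = 0.725). The call was also lost without WT replicate 1, WT replicate 2 or Tbx21-KO replicate 1, with values of 0.35, 0.32 and 0.25. The count of lower neighbours fell from 4 to 2 without WT replicate 1 and to 1 without either Tbx21-KO replicate. Rescaled to the T cell list, described with the marker genes, 12 of the 14 neighbours were higher and 0 lower. Over all 11013 genes tested, 7163 were then higher and 689 lower.

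Cysteine cathepsins, of the papain family that stefins block, were measured next. The list also holds legumain, which is not of that family, and the counts, median and sums below include it. Of 10 with a row, 9 were tested. In Tbx21-KO 7 of these were higher and 2 lower, against 30.1% and 23.0% of all genes tested, with a median log2 fold change of 1.16 against 0.04 over all genes tested. Ctss, the endoprotease that trims the invariant chain of MHC class II, was at 34.7 and 36.5 FPKM in WT, against 78.2 and 83.6 in Tbx21-KO (log2 fold change 1.16, SE 0.051, limma adjusted p = 0.000118). Ctsz, a carboxypeptidase, was at 47.3 and 48.3 FPKM in WT, against 110.4 and 108.4 in Tbx21-KO (log2 fold change 1.18, SE 0.036, limma adjusted p = 4.57e-05). Ctsb, a widespread lysosomal protease, was at 32.1 and 32.7 FPKM in WT, against 50.2 and 52.9 in Tbx21-KO (log2 fold change 0.66, SE 0.044, limma adjusted p = 0.0004). In each of these 3 the groups did not overlap, but the share of all genes tested with such a separation was not counted.

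Ctsl and Ctsh, both classic stefin targets, were low. Ctsl averaged 0.829 ± 0.0466 FPKM in WT, against 3.75 ± 0.0404 in Tbx21-KO, and Ctsh 0.389 ± 0.0547 against 2.55 ± 0.365 (SD, n = 2 per group). Their log2 fold changes were 1.38 (limma adjusted p = 0.000279) and 1.35 (limma adjusted p = 0.000905). Ctsf went from 0.351 to 1.88 FPKM (1.09, limma adjusted p = 0.00119), and Lgmn, legumain, an asparagine-specific protease of another family, from 1.25 to 6.22 FPKM (1.68, limma adjusted p = 0.000114). Ctsf, Ctsh and Ctsl had WT means under 1 FPKM and reached the filter through their Tbx21-KO values. They had to differ, so nothing is read from their p-values, and the counts and median of the whole list include them. Of the 6 list genes at 1 FPKM or more in WT, 4 were higher and 2 lower.

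The 2 that fell were Ctsw and Ctsc. Ctsw, known from cytotoxic lymphocytes, was the most abundant cathepsin of the WT cells at 232.6 and 237.1 FPKM and stood at 69.3 and 74.8 FPKM in Tbx21-KO (log2 fold change -1.69, SE 0.050, limma adjusted p = 3.96e-05). Ctsc, which activates granzymes and neutrophil serine proteases, was at 25.3 and 25.9 FPKM in WT, against 19.5 and 20.2 in Tbx21-KO (log2 fold change -0.35, SE 0.042, limma adjusted p = 0.00256). After rescaling to the T cell list the value of Ctsc turned to 0.01 and it was not called. Ctsw made up 62.0% and 61.9% of the summed FPKM of the list in WT and 20.3% and 21.1% in Tbx21-KO. Without Ctsw, left out after its value was seen, the list summed to 142.5 and 146.2 FPKM in WT and 273.0 and 280.0 FPKM in Tbx21-KO. Legumain is still part of that sum. In the Tbx21-KO libraries the stefin A sum came to 91.8% and 96.0% of that figure. All of these are levels of RNA, not of protein or of protease activity.

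Cathepsins of other protease classes, which stefins do not block, were measured for comparison. Ctsg, a serine protease of neutrophil granules, went from 1.73 ± 0.0139 to 306.5 ± 1.08 FPKM (SD, n = 2 each; log2 fold change 6.81, limma adjusted p = 8.54e-07). Ctse, an aspartic protease, fell from 29.6 ± 0.840 to 3.60 ± 0.244 FPKM (SD, n = 2 each; log2 fold change -2.73, limma adjusted p = 1.85e-05). Ctsa, a lysosomal carboxypeptidase, was at 27.1 and 29.4 FPKM and was not called (0.12, limma adjusted p = 0.092).

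Of the cystatins outside the locus, 9 had a row and 4 were tested. Of these 4, 3 were higher and 0 lower in Tbx21-KO, against 30.1% and 23.0% of all genes tested. Their median log2 fold change was 0.85, against 0.04 over all genes tested. Cstb, which encodes stefin B, the widely expressed relative of stefin A, was at 88.1 and 104.1 FPKM in WT, against 209.5 and 205.1 FPKM in Tbx21-KO (log2 fold change 1.11, SE 0.085, limma adjusted p = 0.000603). Cst3, the secreted cystatin C, was at 59.95 and 66.4 FPKM in WT, against 131.0 and 129.6 in Tbx21-KO (1.03, SE 0.058, limma adjusted p = 0.000248). Cst7, cystatin F of lymphocyte and myeloid granules, was at 101.9 and 108.4 FPKM in WT, against 163.1 and 172.1 in Tbx21-KO (0.67, SE 0.051, limma adjusted p = 0.0006). All 3 were thus well expressed in WT cells, in which the stefin A sum stayed under 0.1 FPKM. Ahsg, fetuin A, was at 1.36 ± 0.463 and 1.85 ± 0.772 FPKM (SD, n = 2 each) and was not called (0.26, limma adjusted p = 0.399). In the Tbx21-KO libraries Cstb was at 0.836 and 0.763 times the stefin A sum, so the order of Cstb and that sum was the opposite of that in WT. This holds for the sum only. Each single member stayed below Cstb in both groups, the highest, Stfa1, at 94.7 and 103.7 FPKM in Tbx21-KO 1 and 2.

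**Figure D4:**
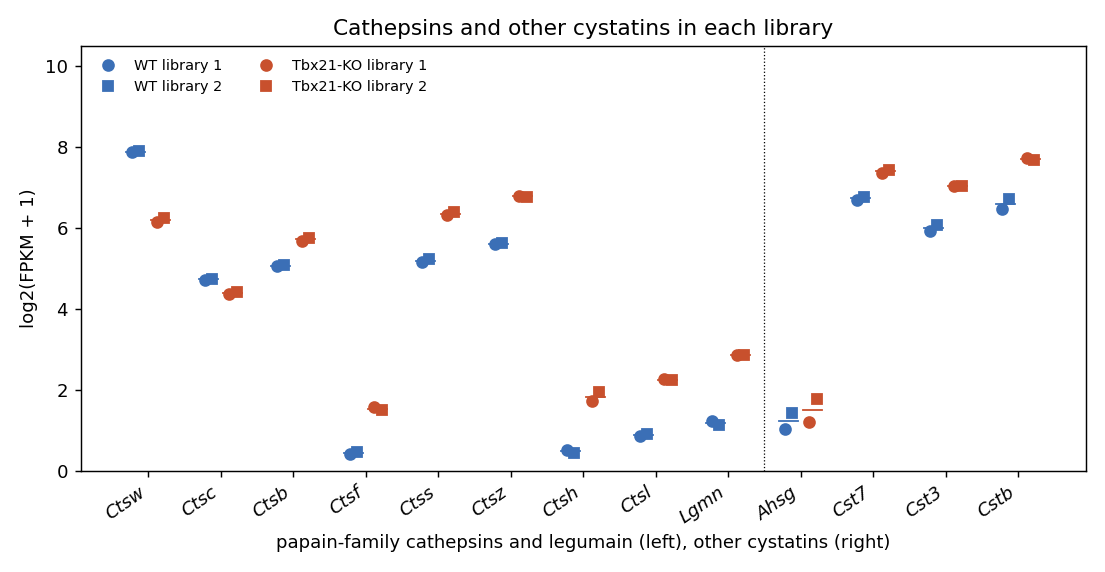
log2(FPKM + 1) (y axis) of the tested cysteine cathepsins with legumain (left of the dotted line) and of the cystatins outside the locus (right), with 1 point per library and a line at each group's mean of 2. Ctsw and Ctsc sit lower in both Tbx21-KO libraries, and every other gene but Ahsg has both Tbx21-KO points above both WT points. The share of all genes tested with such a separation was not counted.

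The 10 tested genes nearest to the stefin A sum in profile were found by Euclidean distance over the 4 libraries, on centred log2(FPKM + 1) values with the members left out. With 2 groups of 2, this ranks little more than the size of the difference between the groups. Camp, which encodes the antimicrobial peptide cathelicidin, was nearest at a distance of 0.25, with 0.0528 and 0.219 FPKM in WT and 224.5 and 242.5 in Tbx21-KO. Prtn3 (proteinase 3) followed at 0.48, Prg2 (major basic protein) at 0.85, Ctsg at 1.08, Mpo (myeloperoxidase) at 1.24 and Thbs1 (thrombospondin 1) at 1.27. Then came S100a8 at 1.40, Chil3 at 1.499, Lcn2 (lipocalin 2) at 1.59 and Gm5483 of the locus itself at 1.68. These 10 lie on 7 chromosomes, and only Gm5483 is on chromosome 16.

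Marker lists give the setting in which the stefin A genes were high. T cell RNA showed in the markers: the WT means of all 21 T cell markers with a row were at 1 FPKM or more. The genes of CD4 and CD8 are not among the 21, so the double-negative label was not checked. Thy1, a T cell surface protein, was at 617.8 and 629.0 FPKM in WT, against 510.6 and 513.2 in Tbx21-KO. Trbc2 and Trbc1, the constant segments of the T cell receptor beta chain, averaged 282.7 and 187.8 FPKM in WT and 164.6 and 103.7 FPKM in Tbx21-KO. The lower call of Trbc2 was lost without Tbx21-KO replicate 1 or 2 (limma adjusted p = 0.0503 and 0.0504). The T cell list summed to 2165 and 2272 FPKM in WT and 1547 and 1580 in Tbx21-KO. Of its genes, 15 were lower, 2 higher and 4 not called, where 23.0% of all genes tested were lower and 30.1% higher. The lower call of Thy1, with a log2 fold change of -0.28 (limma adjusted p = 0.00373), turned to 0.09 and was not called once the libraries were rescaled to this list. Thy1 is itself on the list and fell less than the mean of the list, so its turn follows from the rescaling. Tbx21 itself was at 13.25 and 11.7 FPKM in WT, against 2.29 and 2.41 FPKM in Tbx21-KO (log2 fold change -2.01, limma adjusted p = 8.21e-05).

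Granulocyte genes moved with the stefin A genes. Beside the counts that follow, 30.1% of all genes tested were called higher and 23.0% lower. Primary granule markers were higher in 5 of 5 tested, of which 1 was at 1 FPKM or more in WT, with a summed level of 2.28 and 2.66 FPKM in WT and 1939 and 1898 in Tbx21-KO, led by Elane, neutrophil elastase, at 1072 ± 21.6 FPKM in Tbx21-KO (SD, n = 2), Prtn3 and Ctsg. Secondary granule markers were higher in 7 of 7, of which 2 were at 1 FPKM or more in WT, with sums of 3.22 and 5.82 FPKM in WT and 4974 and 5044 in Tbx21-KO, led by Ngp, Chil3 and Camp, at means of 3200, 1280 and 233.5 FPKM in Tbx21-KO. Mature neutrophil markers were higher in 12 of 12, of which 5 were at 1 FPKM or more in WT, with sums of 10.9 and 12.3 FPKM in WT and 5193 and 5500 in Tbx21-KO. S100a9, a calcium-binding protein of neutrophils, led them at 2.38 and 2.30 FPKM in WT and 3856 and 4068 in Tbx21-KO, 15.4 and 15.1 times the stefin A sum. S100a8, its partner, averaged 1264 FPKM in Tbx21-KO, and Ly6g, a neutrophil surface marker, 21.7 FPKM. The other genes of these 3 lists reached the filter through their Tbx21-KO values and had to differ, so nothing is read from the counts. None of the granule and neutrophil markers was at 0 in both WT libraries.

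Other lists were higher too, and their counts stand against the same 30.1% higher and 23.0% lower of all genes tested. Mast cell and basophil markers were higher in 7 of 9 tested and lower in 1. Of the 4 of these at 1 FPKM or more in WT, 3 were higher and 1 lower. The list had sums of 25.9 and 27.9 FPKM in WT and 399.1 and 405.0 in Tbx21-KO. Prss34 and Mcpt8, proteases of basophils, and Cpa3, of mast cells, averaged 203.6, 108.6 and 36.5 FPKM in Tbx21-KO. Not all followed. Kit, the 1 that was lower, averaged 17.6 FPKM in WT and 11.1 in Tbx21-KO (limma adjusted p = 0.000616), and Cma1 was not called (limma adjusted p = 0.26). Mcpt4 and Tpsab1, at 0 in WT, stayed near 0 in Tbx21-KO, at 0.043 and 0.126 FPKM and at 0.123 and 0 FPKM. Monocyte and macrophage markers were higher in 7 of 7, of which 5 were at 1 FPKM or more in WT, with sums of 199.2 and 199.1 FPKM in WT and 485.7 and 517.2 in Tbx21-KO. Of their leading genes, Lyz2, lysozyme, went from 3.26 ± 0.823 to 207.0 ± 13.02 FPKM and Ccr2, a chemokine receptor, from 19.2 ± 0.722 to 41.6 ± 0.980 FPKM (SD, n = 2 each). Ly6c2, which T cells also express, was at 162.9 and 187.4 FPKM, and its higher call was lost without Tbx21-KO replicate 2 (limma adjusted p = 0.086).

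Dendritic cell markers were higher in 4 of 6 tested and lower in 0, against 30.1% and 23.0% of all genes tested. They were led by Cd74, Batf3 and H2-Eb1 at 44.8, 25.6 and 21.02 FPKM in Tbx21-KO, with sums of 34.4 and 37.3 FPKM in WT and 106.3 and 112.0 in Tbx21-KO. The 2 not called, named after their values were seen, were Itgax and Xcr1, with log2 fold changes of -0.22 and -0.29. Clec9a and Cd209a, defining genes of dendritic cell subsets, stayed under 0.04 FPKM in all 4 libraries. B cell markers were higher in 3 of 3, namely Ighm, Igkc and Blk at 37.4, 35.02 and 16.9 FPKM in Tbx21-KO, with sums of 40.7 and 42.3 FPKM in WT and 92.4 and 89.3 in Tbx21-KO. Ighm changed by only 0.16 on the log2 scale, and its call was lost in 5 alternatives. It was lost with median-of-ratios scaling (limma adjusted p = 0.067) and with no variance trend (limma adjusted p = 0.0603). The call was also lost without WT replicate 1, Tbx21-KO replicate 1 or Tbx21-KO replicate 2, with values of 0.13, 0.15 and 0.16. Keratinocyte markers, included because stefin A is also an epidermal protein, were tested in none of the 5 with a row. They summed to 0.466 and 0.517 FPKM in WT and 2.11 and 1.49 FPKM in Tbx21-KO, with Sprr1a, Krt10 and Sbsn at means of 0.948, 0.458 and 0.362 FPKM in Tbx21-KO and Ivl at 0 in WT. That sum is far below the stefin A sum in the same libraries. The part of the other cell types in the level of the stefin A genes was not tested.

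**Figure D5:**
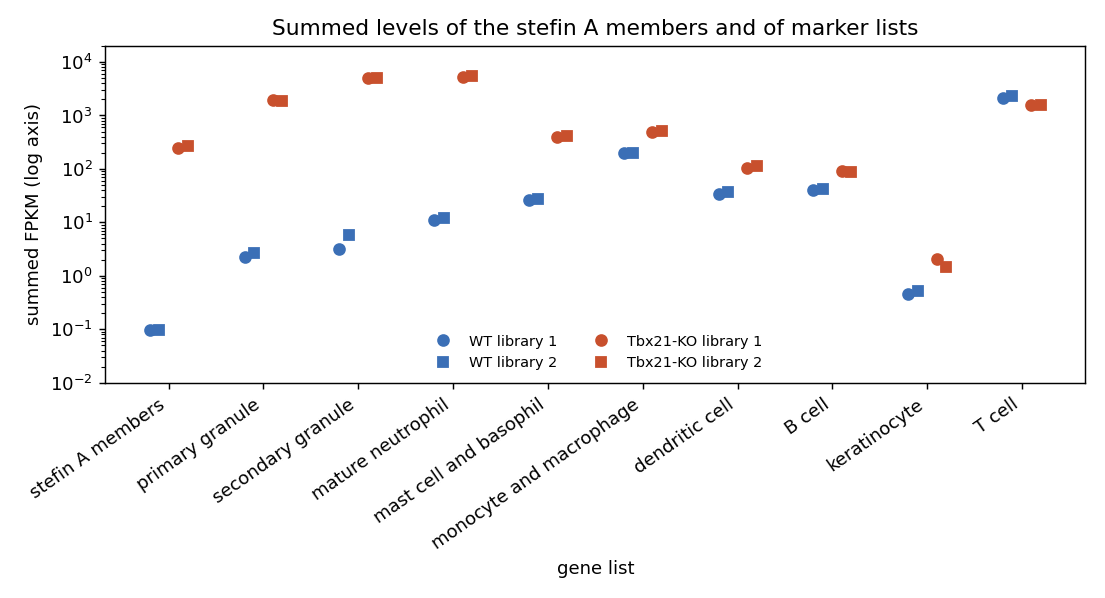
Summed FPKM (y axis, log axis) of the 4 stefin A members and of each marker list (x axis), with 1 point per library. The stefin A sum and the granule and neutrophil lists are widely separated between the groups, the T cell list is lower in Tbx21-KO, and the keratinocyte list stays at or below 2.11 FPKM.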

How the data were processed

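RNA of 4 cDNT libraries (2 WT, 2 Tbx21-KO) was measured by RNA sequencing. The authors deposited FPKM values per Ensembl gene identifier and library. The submitters' processing notes name GRCm38 and mm10 as builds. The aligner, counting, strandedness and read length were not given in the sources used here. Of 24769 rows the last is cut short and was not used. Identifiers were matched to GENCODE M21 (24720 of 24768). Sequences came from the M21 transcripts and the RefSeq promoter table, which held 9 of the 10 locus genes.

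Log2(FPKM + 1) was compared between groups with limma 3.58.1 in R 4.3.3, with an intensity trend, in the 11013 genes with a mean of at least 1 FPKM. Benjamini-Hochberg adjustment of p-values ran over all of them, and an adjusted p under 0.05 was called. Fold changes on this scale understate the change of low genes. Recovery of known changes was tested on simulated data. With 2 libraries per group an exact permutation test of 1 gene cannot pass 0.05, so none was used. Library totals were found from the FPKM step of 1 read, which gave whole reads (within 0.1) for 96.8% to 97.3% of values under 20 reads per library. The totals need not be the full depth. Read ratios carry exact 95% binomial intervals.

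The members and gene lists were chosen with earlier results of these data known. Named genes are the members, the tested genes of the locus, cystatin and cathepsin lists, the 3 highest of each marker list, the 3 nearest tested neighbours on each side and the 10 nearest profiles. Casr, Gm15845, Gm5416, Csta1, Mcpt4, Tpsab1, Kit, Cma1, Ivl, Dirc2, Hspbap1, 4930565N06Rik, Gm49652, Itgax, Xcr1, Clec9a and Cd209a were named besides, after their values were seen. Alternatives were other pseudocounts, filters and scalings, voom on recovered reads, no variance trend, a wider neighbour window, a replicate block and leaving out each library.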

Additional observations from a re-analysis of the deposited data

How the results depend on the processing

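The stefin A sum kept its direction under every alternative run. Its log2 difference of 7.89 became 10.36 with a pseudocount of 0.1, 5.70 with a pseudocount of 5, 7.17 after quantile normalization, 8.10 rescaled to the T cell list and 7.01 over every locus gene with a row. Leaving out a library gave 7.84 to 7.94. Over all genes, 3315 were higher and 2531 lower. At a mean of at least 5 FPKM 2018 were higher, after quantile normalization 3801 were lower, and rescaled to the T cell list 7163 were higher and 689 lower. The share of higher calls was 56.7% as deposited, 50.8% with median-of-ratios scaling, 39.1% after quantile normalization and 91.2% rescaled to the T cell list. The median over all genes was 0.04, -0.10 after quantile normalization and 0.36 with the T cell list, so changes of that size have no settled direction. Cathepsins counted 3 higher at a mean of at least 5 FPKM, where fewer were tested, and 1 lower with the T cell list. Neighbours counted 2 lower with no filter, 1 higher at a mean of at least 5 FPKM, and, rescaled to the T cell list, 12 higher and 0 lower. Leaving out a library gave 1 to 4 lower neighbours. Except at a mean of at least 5 FPKM and in the fits without a library, where fewer genes or libraries entered, the cause was not tested.

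Leaving aside the genes named besides, 50 named genes outside the locus list were tested, and 44 were called. Of these, 38 kept direction and call, 34 in all 14 alternatives and 4 in the 13 they entered (Ctsf, Ctsh, Ctsl and Lgmn, which average under 5 FPKM). The nearest profiles were picked for a difference like that of the stefin A sum. Others, such as Elane, Mpo and Ctsf, reached the filter through Tbx21-KO and had to differ. The share of all called genes that kept their call was not counted, so nothing is read from this count. Ctsc and Thy1 reversed, to 0.013 and 0.093, with the T cell list. Thy1 belongs to that list, so its turn follows from the rescaling. Ighm, Iqcb1, Ly6c2 and Trbc2 lost their call in at least 1 alternative. Same-numbered libraries did not deviate together (r = -0.025 across 11013 genes), and no label says what a number marks. With a replicate block, 3245 genes were higher and 2482 lower, cathepsins stayed at 7 higher and 2 lower, cystatins at 3 higher, and neighbours counted 6 higher and 3 lower. Below about 1 FPKM these short genes rest on few reads, so the WT levels of the members are known only to within counting error.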
